A study of Mus musculus with 6 samples.

Results

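Mast cell and basophil genes were followed in mouse erythroid cultures given the Plek2 inhibitor NUP-17d. The set holds 10 genes, taken by symbol from a fixed list of granule proteases, histamine synthesis and receptor genes (Cpa3, Mcpt8, Prss34, Ms4a2, Fcer1a, Gzmb, Hdc, Tpsb2, Cma1 and Il1rl1), out of 17060 genes with a read in at least 1 culture. All 10 were found in every culture. Lineage-negative BM cells of wild-type mice were grown with EPO and received DMSO, the vehicle (3 cultures), or NUP-17d at 10 μM (3 cultures), in each case for 48 hours. The labels call the cells erythroblasts and give no age, sex or strain. Whether the cultures came from separate mice is not stated, so the p-values measure only the spread between these cultures.

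Mast cells and basophils are granulocytes of the allergic response. They carry the high-affinity IgE receptor FcεRI on their surface, and cross-linking of that receptor releases stored granules that hold proteases, heparin or related proteoglycans, and histamine. Both lineages arise from BM progenitors under the control of GATA2, with MITF marking the mast cell branch and CEBPA the basophil branch, and IL-3, SCF and IL-33 act on them. GATA2 and GATA1 also act in erythroid and megakaryocytic progenitors, so several genes of these lineages share regulators with red cell development.

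Expected counts, the authors' estimates of reads per gene, summed to 20076409 to 20419018 per culture. They were scaled by TMM, the edgeR method that corrects for library composition, because erythroid RNA differed between the groups. All 14 erythroid markers tested, hemoglobin genes among them, were called lower with NUP-17d (13 of 14 when libraries were scaled by their totals only), and their summed level was 220775 to 254819 CPM (reads scaled to a common library size) with DMSO and 122213 to 136632 with NUP-17d. In bulk RNA, fewer cells of a type and less RNA per cell cannot be told apart. Of the 12306 genes tested with edgeR's quasi-likelihood test, 35.3% passed an adjusted p of 0.05, 16.4% as higher and 18.9% as lower with NUP-17d. The median log2 fold change of all genes was 0.014 with TMM and 0.28 when libraries were scaled by their totals only, so each change under totals only is read against 0.28.

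The set made up a small part of the RNA. Its 10 genes held 4661 to 5137 reads per DMSO culture and 5033 to 5191 per NUP-17d culture, or 0.0228% to 0.0258% of a library, and Prss34, Mcpt8 and Cpa3 gave 72.3% to 74.3% of these reads. Compared per transcript length as FPKM divided by the TMM factor (mean ± SD, n = 3 cultures), the highest level in DMSO was that of Prss34, at 75.9 ± 1.87, followed by Mcpt8 at 68.8 ± 5.32 and Cpa3 at 32.2 ± 1.80. Within each DMSO culture Prss34 lay above Mcpt8 (76.73, 73.78 and 77.25 against 64.39, 67.2 and 74.68), although their ranges over the 3 cultures overlapped. In the NUP-17d cultures Prss34 (62.0 ± 1.51) lay above Mcpt8 (52.6 ± 3.13) without overlap. The middle of the order was Hdc (10.5 ± 0.145 in DMSO), Ms4a2 (6.50 ± 0.578) and Il1rl1 (4.11 ± 0.0956). Gzmb (1.97 ± 0.198) and Fcer1a (1.93 ± 0.448) overlapped. Cma1 and Tpsb2, the defining proteases of connective tissue mast cells, had 1 to 4 reads in each culture, at or near 0. Tpsb2 is a close copy of Tpsab1, and how reads shared by the pair were assigned is not given in the sources used here. The set was therefore led by the basophil proteases, Prss34 and Mcpt8, followed by Cpa3, whereas Cma1 and Tpsb2 were barely detected.

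**Figure D1:**
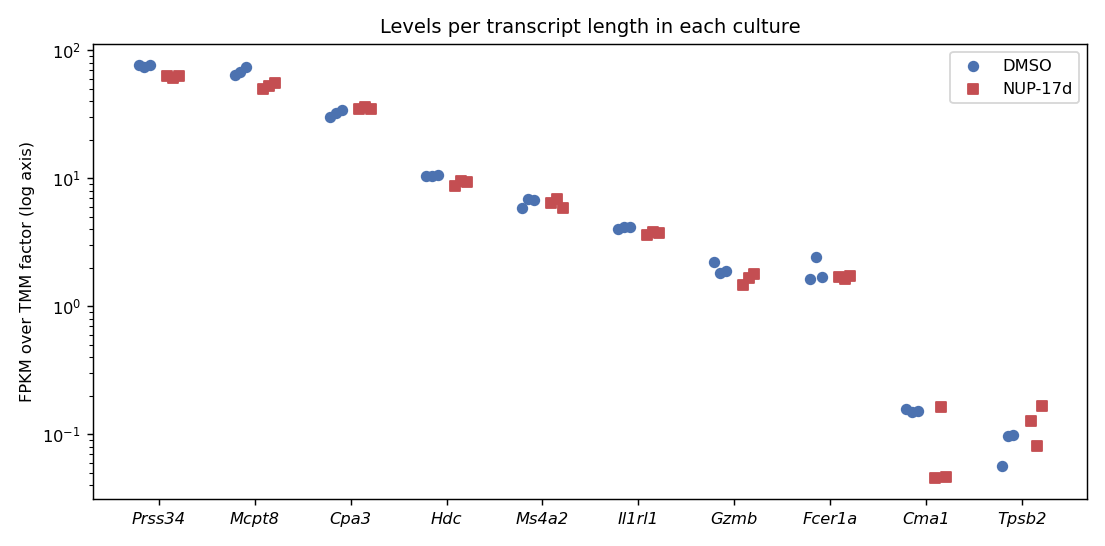
Levels of the 10 genes per transcript length (FPKM over the TMM factor, log axis), one point per culture, with genes ordered by their DMSO mean. Levels run from 75.9 for Prss34 down to below 0.2 for Cma1 and Tpsb2, and Gzmb and Fcer1a overlap.

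Gene positions are RefSeq's in GRCm38, the build that the submitters' notes name as mm10. Cma1 (chr14:55941451-55944675), Mcpt8 (chr14:56082163-56085499) and Gzmb (chr14:56258836-56262334) belong to the cluster of mast cell protease and granzyme genes on chromosome 14. Prss34 (chr17:25298394-25300168) and Tpsb2 (chr17:25366308-25368096) belong to the tryptase cluster on chromosome 17. Within each cluster the levels differed widely, with Mcpt8 far above Gzmb and Cma1, and Prss34 far above Tpsb2. Il1rl1 and Fcer1a lie on chromosome 1 (chr1:40404864-40465418 and chr1:173221269-173227232), Hdc on chromosome 2 (chr2:126593659-126624025), Cpa3 on chromosome 3 (chr3:20215616-20242209) and Ms4a2 on chromosome 19 (chr19:11615517-11623790).

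The 250 bases before the transcript start were read from the RefSeq promoter table (GRCm38.p6) for 9 of the 10 genes, and they were searched for the GATA motif (AGATAA or TGATAA) and for the E-boxes CATGTG and CACGTG, on both strands. The GATA motif was found in 5 of the 9 genes (Il1rl1, Fcer1a, Cpa3, Prss34 and Ms4a2), and in 16.6% of all 32851 windows. An E-box was found in 2 genes (Fcer1a and Prss34), and in 17.6% of all windows. The set is counted by gene and the background by window, and a gene such as Il1rl1 can have several windows. These shares are therefore not like for like. A match describes the letters only and says nothing of binding. The windows of Prss34 and Cpa3 are shown because these proteases moved in opposite directions after TMM scaling, and the first window of Il1rl1 because it holds 2 GATA matches. Motif matches are in capitals. The strand and position are + and chr17:25298144-25298393 for Prss34, - and chr3:20242182-20242431 for Cpa3, and + and chr1:40429320-40429569 for Il1rl1. These 3 windows hold 0 bases of the exons that GENCODE gives for the same genes. RefSeq's spans of Cpa3 and Il1rl1 begin further upstream than GENCODE's, so the Cpa3 window shares 28 bases with its span, the Il1rl1 window lies within its span with all 250 bases, and the Prss34 window shares 0.
Prss34: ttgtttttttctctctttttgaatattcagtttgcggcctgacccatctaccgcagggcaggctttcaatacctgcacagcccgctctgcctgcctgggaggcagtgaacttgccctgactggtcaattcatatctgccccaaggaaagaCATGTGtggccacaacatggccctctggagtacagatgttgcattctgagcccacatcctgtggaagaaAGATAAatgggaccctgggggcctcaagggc
Cpa3: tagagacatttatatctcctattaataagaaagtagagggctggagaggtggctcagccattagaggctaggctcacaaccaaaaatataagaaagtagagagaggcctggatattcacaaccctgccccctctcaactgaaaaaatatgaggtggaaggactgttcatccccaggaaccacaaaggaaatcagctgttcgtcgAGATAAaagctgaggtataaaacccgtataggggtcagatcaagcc
Il1rl1: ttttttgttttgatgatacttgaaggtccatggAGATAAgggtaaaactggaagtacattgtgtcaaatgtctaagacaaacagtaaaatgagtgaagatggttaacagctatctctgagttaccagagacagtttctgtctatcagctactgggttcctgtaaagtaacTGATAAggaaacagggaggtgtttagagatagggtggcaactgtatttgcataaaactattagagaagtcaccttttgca
The GATA match starts 31 bases before the start of Prss34 and 46 bases before that of Cpa3, and at 217 and 80 bases before that of Il1rl1. The E-box of Prss34 starts 100 bases before its start. Mcpt8, Gzmb, Hdc and Cma1 held neither motif in their windows. The windows of Mcpt8 and Hdc lie within RefSeq's spans of these genes with all 250 bases, and that of Mcpt8 holds 76 GENCODE exon bases. For Mcpt8 and Hdc the result therefore does not cover the bases before the start of RefSeq's span. The Ms4a2 window shares 71 bases with RefSeq's span, and its GATA matches at 37 and 11 bases before the start lie in that part. The second Il1rl1 window lies within RefSeq's span with all 250 bases and holds 2 GENCODE exon bases.

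The comparison of NUP-17d with DMSO asked which of these genes changed in the treated cultures. After TMM scaling, 8 of the 10 genes passed the filter on low counts, and 5 of the 8 passed an adjusted p of 0.05, against 35.3% of all genes tested. Mcpt8, Prss34, Hdc and Il1rl1 were lower with NUP-17d (4 of 8, against 18.9% of all genes) and Cpa3 was higher (1 of 8, against 16.4%). The groups did not overlap for 6 of the 8 genes, against 46.0% of all genes. The median log2 fold change of the 8 genes was -0.20, beside 0.014 for all genes. These directions are relative to the composition of the library. When the libraries were scaled by totals only, Cpa3 and Ms4a2 were called higher (against 68.7% of all genes) and no gene of the set was called lower (against 5.34%). The median of the 8 was then 0.065, beside 0.28 for all genes. At an unadjusted p under 0.05, 1 gene of the set was lower with totals only. DESeq2 called 3 of the genes lower (Mcpt8, Prss34 and Hdc, against 15.3% of all genes) and 0 higher (against 10.4%), with 1 higher at an unadjusted p under 0.05. With the 12 hemoglobin genes removed before scaling, the same 5 genes were called, with a log2 fold change of -0.39 for Mcpt8 and 0.13 for Cpa3.

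**Figure D2:**
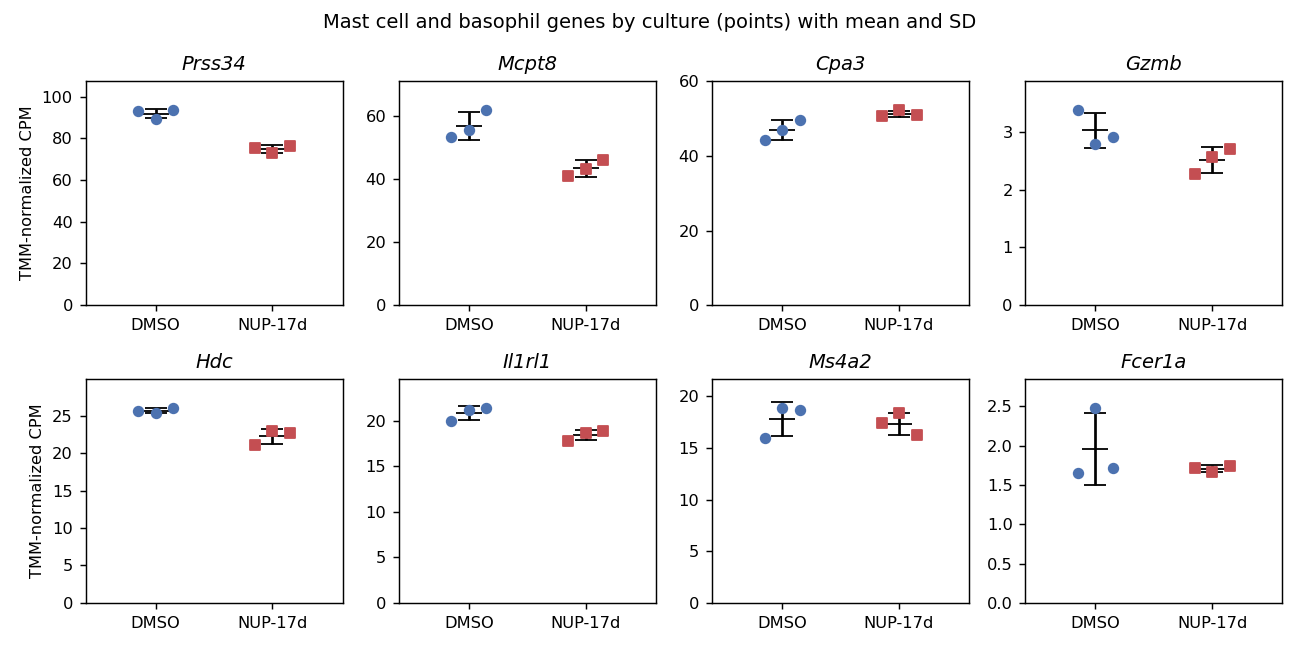
TMM-normalized CPM of the 8 tested genes in each culture (points), with the mean and SD of 3 cultures. NUP-17d cultures sit below the DMSO cultures for Prss34, Mcpt8, Gzmb, Hdc and Il1rl1, above them for Cpa3, and overlap them for Ms4a2 and Fcer1a.

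Among the granule proteases, Prss34, which encodes a tryptase-like serine protease of basophils also known as mMCP-11, had 92.9, 89.2 and 93.4 CPM in DMSO cultures 1, 2 and 3 and 75.3, 72.7 and 76.3 CPM in NUP-17d cultures 1, 2 and 3. All treated cultures lay below all control cultures. Prss34 fell by 18.6% (log2 fold change -0.30, standard error 0.039, edgeR adjusted p = 9.21e-07). With totals only, the log2 fold change was -0.029 (adjusted p = 0.541), which lies 0.31 below the median of all genes.

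Mcpt8, which encodes the basophil protease mMCP-8, had 53.4, 55.7 and 61.9 CPM with DMSO and 41.0, 43.2 and 46.2 CPM with NUP-17d. The groups were separate, and DMSO culture 3 was the highest of the 6. Mcpt8 fell by 23.8% (log2 fold change -0.39, standard error 0.053, edgeR adjusted p = 1.32e-06), the largest change of the 8 tested genes. It was also lower with totals only (-0.13, adjusted p = 0.0548), without passing the threshold.

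Cpa3 encodes the mast cell carboxypeptidase A, which basophils and their progenitors also express. It had 44.3, 47.1 and 49.5 CPM with DMSO and 50.6, 52.2 and 50.9 CPM with NUP-17d, and the lowest treated culture lay just above the highest control culture. Cpa3 rose by 9.13% (log2 fold change 0.13, standard error 0.046, edgeR adjusted p = 0.0349), and by 0.39 on the log2 scale with totals only (adjusted p = 6.34e-07). The call was lost without DMSO culture 1, DMSO culture 2, NUP-17d culture 2 or NUP-17d culture 3 (log2 fold change 0.086 to 0.13, adjusted p = 0.0609 to 0.207) and with DESeq2 (adjusted p = 0.142).

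Gzmb, which encodes granzyme B, is best known from cytotoxic lymphocytes and is also made by mast cells and basophils. It had 3.37, 2.79 and 2.90 CPM with DMSO and 2.26, 2.55 and 2.70 CPM with NUP-17d. The groups did not overlap, but the change did not pass (log2 fold change -0.27, standard error 0.17, edgeR adjusted p = 0.223). These values rest on 168 reads in all DMSO cultures together and 166 in all NUP-17d cultures. Markers of NK and cytotoxic T cells had a summed level of 21.6 to 25.2 CPM over 12 markers with DMSO and 20.9 to 22.4 with NUP-17d. Most of the sum came from Nkg7 and Klrk1 (means of 14.45 and 4.28 CPM with DMSO). Gzma, Prf1, Ncr1, Tbx21 and Fasl were near 0, with 17, 20, 14, 25 and 7 reads in all cultures together. None of the 12 was at 0 in all cultures, 5 were tested, and 0 of these were called by edgeR or DESeq2 (2 at an unadjusted p under 0.05 with edgeR, 1 in each direction). The part of such cells in the Gzmb level was not tested.

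Tpsb2, a tryptase, had 1, 2 and 2 reads with DMSO and 3, 2 and 4 with NUP-17d, and Cma1, a chymase, had 3, 3 and 3 reads with DMSO and 1, 4 and 1 with NUP-17d. Both genes were under the filter and were not tested. The ratio of NUP-17d to DMSO per scaled library was 1.51 for Tpsb2 (95% interval by exact Clopper-Pearson limits, 0.455 to 5.75) and 0.560 for Cma1 (0.164 to 1.76). These intervals cover counting error only, and no difference was detectable at this depth.

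Hdc encodes histidine decarboxylase, the enzyme that makes histamine. It had 25.6, 25.4 and 26.0 CPM with DMSO and 21.1, 23.0 and 22.7 CPM with NUP-17d, and NUP-17d culture 1 was the lowest. Hdc fell by 13.2% (log2 fold change -0.20, standard error 0.057, edgeR adjusted p = 0.00637). With totals only the sign turned (0.062, adjusted p = 0.364), although the value lay 0.22 below the median of all genes.

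Among the receptors, Il1rl1 encodes ST2, the IL-33 receptor chain, in a membrane and a soluble form. It had 20.1, 21.2 and 21.4 CPM with DMSO and 17.9, 18.6 and 18.9 CPM with NUP-17d, with no overlap. Il1rl1 fell by 11.7% (log2 fold change -0.18, standard error 0.062, edgeR adjusted p = 0.0242), a call that was lost without DMSO culture 2, DMSO culture 3 or NUP-17d culture 1 (log2 fold change -0.17 to -0.16, adjusted p = 0.0754 to 0.0844) and with DESeq2 (adjusted p = 0.117), and with totals only the sign turned (0.087, adjusted p = 0.244). It is the only gene of the set whose counts were not whole, in all 6 cultures, so these counts are estimates. The authors' transcript length for Il1rl1, an average that can shift with the mix of its forms, was 4920, 5052 and 5023 bases with DMSO and 4895, 4838 and 4962 with NUP-17d. These lengths overlapped between the groups.

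Ms4a2 encodes the β chain and Fcer1a the IgE-binding α chain of FcεRI. Ms4a2 had 16.0, 18.9 and 18.6 CPM with DMSO and 17.4, 18.4 and 16.2 CPM with NUP-17d. The groups overlapped, and the log2 fold change was -0.040 (95% interval -0.18 to 0.10, edgeR adjusted p = 0.707), or 0.23 with totals only (adjusted p = 0.0140). It was 0.0025 without DMSO culture 2 and 0.0042 without NUP-17d culture 3, neither past the threshold. Fcer1a had 1.66, 2.48 and 1.72 CPM with DMSO and 1.72, 1.66 and 1.74 CPM with NUP-17d, from 109 and 113 reads in all. DMSO culture 2 stood above the other cultures. Without it the log2 fold change of -0.20 (95% interval -0.60 to 0.21, edgeR adjusted p = 0.495) became 0.014. A change of Ms4a2 or Fcer1a was not detected after TMM scaling, and the interval of Fcer1a is wide at this depth.

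**Figure D3:**
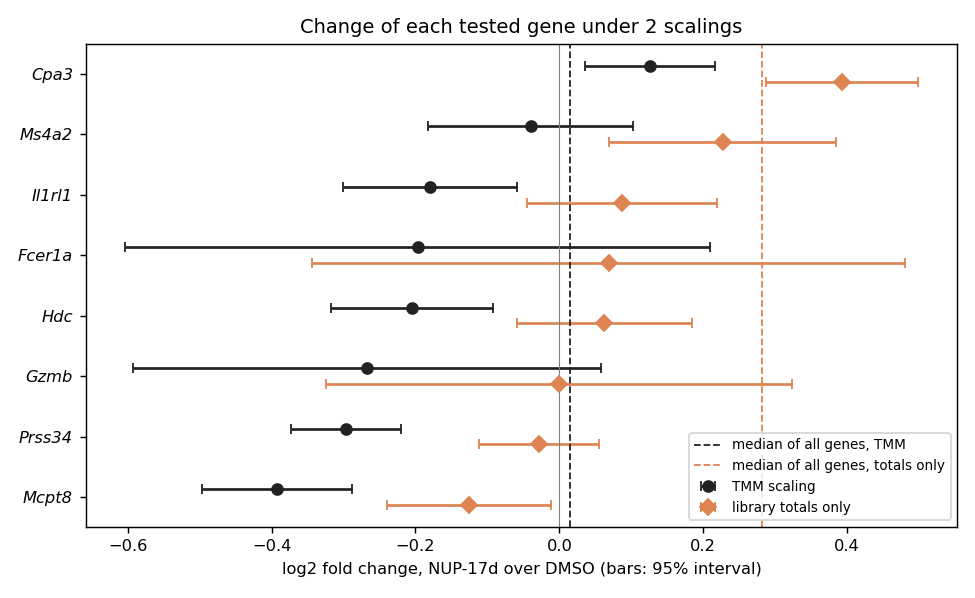
Log2 fold change of the 8 tested genes (points, with 95% intervals as bars) with TMM scaling and with library totals only, beside the median of all genes under each scaling (dashed lines). Cpa3 lies above the median of all genes under both scalings, and Mcpt8 and Prss34 lie below it under both, although their distance from 0 depends on the scaling. The change of scaling moves genes and median by nearly the same amount, so the second position is not a separate check.

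Ratios of reads between genes of the same culture carry no scaling. The pairs with Cpa3 were chosen after the values were seen and are given without a test. The ratio of Cpa3 to Mcpt8 reads was 0.829, 0.845 and 0.800 with DMSO and 1.23, 1.21 and 1.10 with NUP-17d, so Cpa3 had fewer reads than Mcpt8 in each control culture and more in each treated one. The ratio of means was 1.43. The ratio of Cpa3 to Prss34 reads was 0.477, 0.527 and 0.530 with DMSO and 0.672, 0.718 and 0.667 with NUP-17d, and that of Cpa3 to Hdc reads was 1.73, 1.86 and 1.90 with DMSO and 2.40, 2.27 and 2.24 with NUP-17d. For these and for Il1rl1, Ms4a2, Gzmb and Fcer1a, the groups did not overlap, with ratios of means from 1.12 (Ms4a2) to 1.43 (Mcpt8). The gap was narrow for Fcer1a (highest DMSO 28.8, lowest NUP-17d 29.3) and Ms4a2 (2.78 and 2.84). All 7 pairs share the Cpa3 reads, so they are not separate results. The share of pairs without overlap among other genes was not computed. The ratio of Mcpt8 to Prss34, the pair of basophil proteases, averaged 0.621 in the DMSO cultures (SD 0.0438) and 0.581 in the treated cultures (SD 0.0323), with overlap. In the treated cultures Cpa3 had more reads relative to each of the other 7 tested genes, whatever the scaling. After TMM scaling, Cpa3 alone of the tested genes of the set had a positive log2 fold change. The direction of these ratios therefore followed from choosing Cpa3. Among all genes tested, the log2 fold change of Cpa3 lay at percentile 71.8, that of Mcpt8 at 6.48 and that of Prss34 at 9.72.

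**Figure D4:**
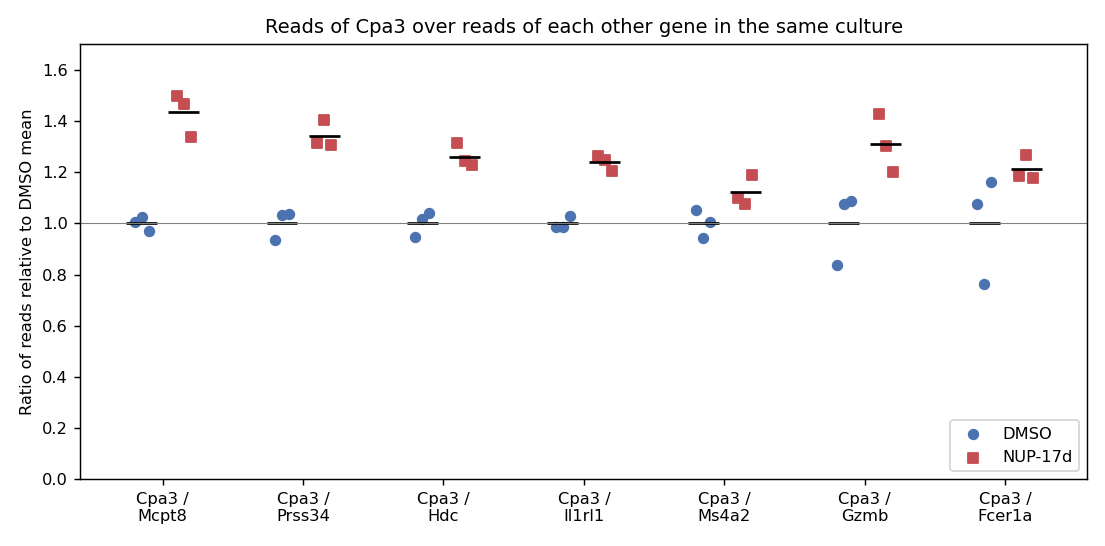
Reads of Cpa3 divided by reads of each other tested gene in the same culture, relative to the DMSO mean of that pair (points are cultures, bars are means). In each pair the 3 NUP-17d cultures lie above the 3 DMSO cultures, with ratios of means of 1.12 to 1.43.

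Related genes were grouped by role into 5 lists. FcεRI passes its signal through LYN, SYK and FYN kinases, the adaptors LAT and LAT2, and phospholipase C. These genes act in many blood cells, so the list is not particular to mast cells or basophils. Of 19 such genes tested, 14 were higher and 0 were lower with edgeR (against 16.4% and 18.9% of all genes), 1 was lower at an unadjusted p under 0.05, and DESeq2 called 13 higher and 0 lower, with a median log2 fold change of 0.16 beside 0.014 for all genes. Lat2 rose from 39.5 ± 2.73 to 53.3 ± 4.62 CPM (log2 fold change 0.43, edgeR adjusted p = 1.01e-06), Fyn rose by 0.33 and Plcg2 by 0.22 on the log2 scale. With totals only, 19 of 19 were higher (against 68.7% of all genes), at a median of 0.42 beside 0.28 for all genes. After TMM scaling, a change of the receptor chains Ms4a2 and Fcer1a was not detected in the same cultures. With totals only, Ms4a2 was called higher (0.23, edgeR adjusted p = 0.0140) and Fcer1a was not (0.068, adjusted p = 0.775). Fcer1g, the γ chain of FcεRI, is counted in this list and was named after its values were seen. It rose from 166 ± 9.035 to 187 ± 8.03 CPM (log2 fold change 0.17, edgeR adjusted p = 0.00175, DESeq2 adjusted p = 0.00283). The difference between Ms4a2 and Fcer1a and the signaling genes was not tested.

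Of the other granule protease and mediator genes, 5 of 23 had no read in any culture (Tpsab1, Mcpt4, Mcpt9, Gzmd and Gzme), 14 were tested, and 7 were higher and 1 was lower (against 16.4% and 18.9% of all genes). Their median was 0.17. With totals only, 12 of the 14 were higher and 0 lower (against 68.7% and 5.34% of all genes). Cd63, a membrane protein of granules and lysosomes that appears on the surface of activated basophils, rose from 97.7 ± 0.682 to 140 ± 8.15 CPM (log2 fold change 0.52, edgeR adjusted p = 6.23e-11). Slc18a2, the vesicular monoamine transporter that loads histamine into granules, rose from 23.1 ± 0.554 to 32.1 ± 0.252 CPM (0.47, adjusted p = 5.57e-08), whereas Hdc, which makes the histamine, had a log2 fold change of -0.20. Bulk RNA does not show whether the reads of Slc18a2, Hdc and the other genes of this list came from the same cells. Alox5, the lipoxygenase of leukotriene synthesis, rose by 0.26 (adjusted p = 0.000366). The gene that was lower was Srgn, the core protein of granule proteoglycans, named after its values were seen (log2 fold change -0.15, adjusted p = 0.00121), and with totals only it was called higher (0.11, adjusted p = 0.00629), although this value was -0.17 relative to the median of all genes.

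Of 18 surface receptor genes, 15 were tested, and 5 were higher and 1 was lower (against 16.4% and 18.9% of all genes), with a median of -0.012. The 6 of 15 called make 40.0%, near the 35.3% of all genes. With totals only, 8 of the 15 were higher and 0 lower (against 68.7% and 5.34% of all genes). Csf2rb and Csf2rb2, which encode β chains of the IL-3 receptor, rose from 319 ± 4.45 to 383 ± 6.79 CPM (log2 fold change 0.26, edgeR adjusted p = 5.60e-07) and by 0.21 on the log2 scale (adjusted p = 1.89e-05). They are similar in sequence, and reads may have been divided between them. Itgb7, the integrin β7 chain of mast cell progenitors, fell from 87.6 ± 3.03 to 73.3 ± 2.12 CPM (-0.26, adjusted p = 1.30e-05), whereas the value with totals only was 0.011 (adjusted p = 0.842), or -0.27 relative to the median of all genes. Mrgprb2, a defining receptor of connective tissue mast cells, had no read in any culture.

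Of 16 transcription factor genes tested, 6 were higher and 4 were lower (against 16.4% and 18.9% of all genes), with a median of 0.11. With totals only, 12 of the 16 were higher and 2 were lower (against 68.7% and 5.34% of all genes). Tal1 and Lmo2, which act with GATA1 in erythroid cells, fell under both scalings. Tal1 fell from 463 ± 18.6 to 348 ± 5.58 CPM (log2 fold change -0.41, edgeR adjusted p = 4.82e-10) and Lmo2 by 0.40 on the log2 scale (adjusted p = 1.28e-09), and with totals only their log2 fold changes were -0.14 and -0.13. Bhlhe40, a factor expressed in basophils and mast cells, rose from 19.0 ± 1.03 to 29.5 ± 1.99 CPM (0.63, adjusted p = 6.58e-09). The factors named in the background were looked up after their values were seen. Gata1 fell from 248 ± 4.17 to 197 ± 5.59 CPM (-0.33, adjusted p = 1.65e-08), Gata2 had 79.7 ± 2.69 and 85.3 ± 2.53 CPM (0.098, adjusted p = 0.0605), and Cebpa rose from 107 ± 1.80 to 135 ± 6.21 CPM (0.33, adjusted p = 1.56e-07). Mitf rose by 0.29 on the log2 scale (adjusted p = 0.0147), but not with DESeq2 (adjusted p = 0.0656). With totals only, Gata1 had a log2 fold change of -0.067 (adjusted p = 0.0842), or -0.35 relative to the median of all genes. Under that scaling Gata2 (0.37, edgeR adjusted p = 8.02e-08), Cebpa (0.59, adjusted p = 2.04e-11) and Mitf (0.56, adjusted p = 2.21e-05) were called higher, as were 68.7% of all genes. Relative to the median of all genes, Gata2 then lay at 0.084.

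Of 15 cytokine genes of activated mast cells and basophils, 3 had no read (Il3, Il9 and Ccl1), 6 were tested and 0 were called with edgeR or DESeq2 (1 and 0 at an unadjusted p under 0.05), whereas 3 of the 6 were higher with totals only (against 68.7% of all genes). The lowest p belonged to Il6 (log2 fold change -0.43, adjusted p = 0.112), Ccl4 (-0.28, adjusted p = 0.259) and Ccl2 (0.44, adjusted p = 0.288). Il4 and Il13, the cytokines most typical of basophils, had at most 4 reads in a culture.

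**Figure D5:**
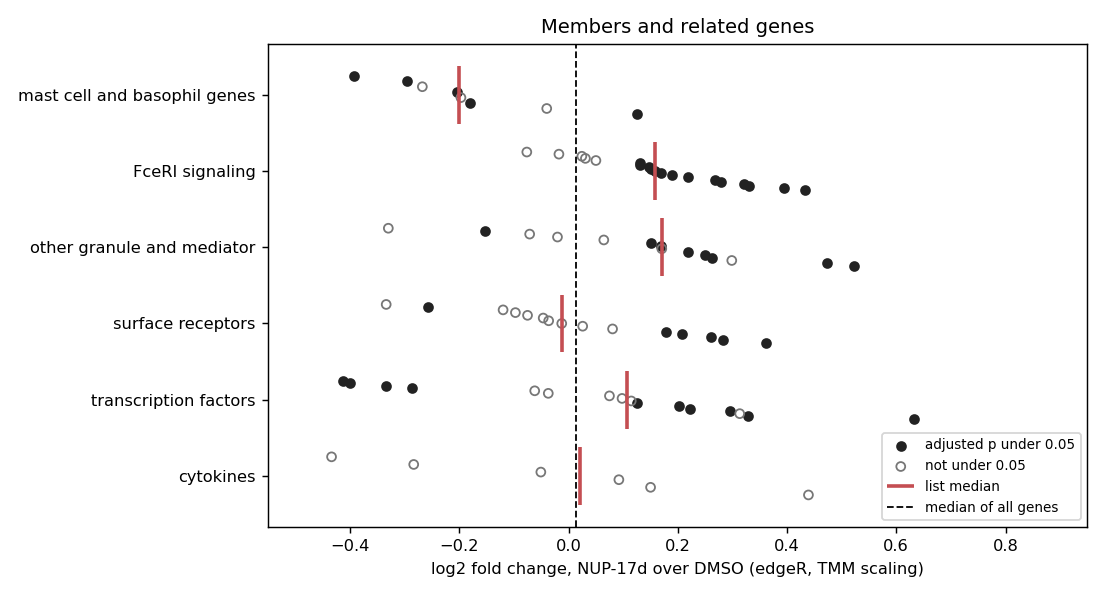
Log2 fold change with NUP-17d (edgeR, TMM scaling) of the tested genes of the set and of the 5 related lists (filled, adjusted p under 0.05), with each list's median and the median of all genes. The set has a median of -0.20 and the FcεRI signaling genes one of 0.16.

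Markers of other cell types stood beside these changes as follows. The 10 neutrophil markers summed to 3995 to 4166 CPM with DMSO and 4106 to 4365 with NUP-17d (3 higher, 1 lower), the 12 macrophage markers to 660 to 723 and 717 to 793 (3 higher, 2 lower), the 10 megakaryocyte markers to 486 to 535 and 563 to 583 (7 higher, 1 lower), and the 10 eosinophil markers to 235 to 264 and 229 to 241 (1 higher, 3 lower). Against the 35.3% of all genes called in either direction, 40.0% of the neutrophil, 41.7% of the macrophage, 80.0% of the megakaryocyte and 40.0% of the eosinophil markers were called. With totals only, these lists had 9, 8, 9 and 6 markers higher and 0, 0, 1 and 2 lower, against 68.7% and 5.34% of all genes. The set itself summed to 257 to 276 CPM with DMSO and 227 to 236 with NUP-17d. No marker of these 4 lists was at 0 in all cultures. The part of these cells in the levels of the set was not tested.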

How the data were processed

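RNA was sequenced from 3 DMSO and 3 NUP-17d cultures after poly(A) selection. Per gene and culture, the deposited tables hold the authors' expected counts and FPKM values, and mm10 is the build named in the submitters' processing notes. The aligner and counter are not given in the sources used here. The labels name a DNBseq platform and the study's methods another instrument and kit, so whether reads kept their strand is unsure. Expected counts were rounded and tested with edgeR 4.0.16 (quasi-likelihood test, filterByExpr, TMM, Benjamini-Hochberg adjustment, threshold 0.05) in R 4.3.3. Alternatives were DESeq2 1.42.0, library totals only, other filters, removal of hemoglobin genes, limma 3.58.1 on log2 FPKM, a replicate block and leaving out each culture. Deposited FPKM values, divided by TMM factors, gave levels per length. An exact permutation test cannot go below p = 0.1 with 3 against 3 cultures and was not used. Replicates differed by more than counting noise (chi-square per degree of freedom 1.84 to 4.54). All 10 genes were named, and in each related list up to 3 with the lowest p. The genes and lists were chosen with earlier results of these data known.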

Additional observations from a re-analysis of the deposited data

How the results depend on the processing

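Scaling by totals only turned the sign of 4 of the 8 tested genes of the set. Each of the 8 stayed on the same side of the median of all genes. The change of scaling moves every gene and the median by nearly the same amount, so this is not a separate check. With library totals only, 8458 genes were higher and 657 lower, in place of 2019 and 2327; limma on log2(FPKM + 1) gave 8423 and 636, limma on log2(FPKM + 0.1) gave 8403 and 635, and DESeq2 called 1276 higher. Of the mast cell and basophil genes, 2, 2 and 2 were higher and 0, 0 and 0 lower under totals only and these limma fits, and DESeq2 called 0 higher. Of the related genes, where 32 were higher and 6 lower, the counts became 54, 56 and 56 higher and 2, 2 and 2 lower. In the same order of fits, the log2 fold change was -0.13, -0.12 and -0.12 for Mcpt8 and -0.029, -0.024 and -0.025 for Prss34, none past the threshold. The sign turned for Ms4a2 (0.23, 0.21 and 0.24), Fcer1a (0.068, 0.057 and 0.091), Hdc (0.062, 0.060 and 0.065) and Il1rl1 (0.087, 0.095 and 0.12), and with limma alone for Gzmb (0.0014 and 0.0018). Cpa3 (0.12) and Il1rl1 (-0.18) missed the threshold with DESeq2, and Il1rl1 did so with limma on FPKM over TMM factors (-0.12). Leaving out 1 culture at a time gave 0 to 1 genes of the set higher and 3 to 4 lower, and log2 fold changes of 0.086 to 0.16 for Cpa3, -0.21 to -0.16 for Il1rl1, -0.11 to 0.0042 for Ms4a2 and -0.30 to 0.014 for Fcer1a. Mcpt8, Prss34 and Hdc kept their calls in all 6 of these fits.

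Deviations of same-numbered cultures from their group means correlated at 0.034, -0.021 and -0.032. No pairing by culture number was seen, but deviations from means of 3 cultures are mostly noise and cannot exclude it. With a replicate block, 2121 genes were higher and 2422 lower, the same number of genes of the set passed in each direction, and Cpa3 had a log2 fold change of 0.13 (edgeR adjusted p = 0.0248). Depth limited Fcer1a, Gzmb, Tpsb2 and Cma1, and with 3 cultures a group small changes such as that of Cpa3 rest on single cultures.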

Other observations

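Eosinophils share progenitors and several regulators with basophils. The 10 eosinophil markers tested had a median log2 fold change of -0.014 and did not move together. Alox15 was higher (0.19, edgeR adjusted p = 0.0499, but 0.218 with DESeq2), and Il5ra (0.15), Siglecf (0.12), Prg3 (0.032), Prg2 (0.026), Epx (-0.053) and Ccr3 (-0.48, adjusted p = 0.0541) did not pass the threshold. The 3 markers that were lower encode eosinophil-associated ribonucleases and are similar in sequence, so reads may have been divided among them. Given as mean ± SD of 3 cultures, Ear1 fell from 20.2 ± 1.42 to 14.9 ± 0.911 CPM (log2 fold change -0.44, edgeR adjusted p = 1.37e-05), Ear2 from 12.5 ± 1.20 to 8.57 ± 0.486 CPM (-0.54, adjusted p = 2.27e-05) and Ear6 from 19.8 ± 2.08 to 15.3 ± 0.478 CPM (-0.37, adjusted p = 0.000224). With totals only, Ear1 and Ear2 were still called lower (-0.18 and -0.28), and Ear6 was not (-0.10, adjusted p = 0.204). These genes were named after their values were seen.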
